A study of Mus musculus with 12 samples.

Results

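The interferon-inducible GTPases described here were 10 mouse genes out of the 24493 gene symbols measured by RNA sequencing in 12 libraries of pancreatic tumour cells. They comprised the guanylate-binding proteins Gbp2, Gbp3, Gbp4, Gbp5 and Gbp7 and the immunity-related GTPases Iigp1, Igtp, Irgm1, Irgm2 and Tgtp1, each found by its symbol. The genes were chosen by their levels in these same libraries, with their differences from WT already known, so those differences are given as a description with no test. All 10 had a TPM above 1 in every library. They therefore all passed the filter on low values, which asked for 3 or more libraries at a TPM of 1 or more and left 13662 genes for testing. TPM is the abundance of a gene's transcripts relative to all transcripts in the library, corrected for their length and scaled so that every library has the same total.

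The libraries came from subcutaneous tumours formed by mouse cells named 6649c2 (strain C57BL/6), from which tumour cells had been sorted. Each of the genotype labels EgfrKO, Klf5KO, Smad4KO and WT had 3 libraries, and no agent or age of the animals is stated in the labels. The targeted genes encode a growth factor receptor (Egfr), a Krüppel-like transcription factor of epithelia (Klf5) and the shared SMAD of TGF-beta and BMP signalling (Smad4). The labels do not state the sorting gate, whether a knockout was 1 clone or a pool of cells, or whether replicates came from separate animals. An effect of the targeted gene and one of the clone cannot be told apart, and the p-values reflect only how far these samples varied, some or all of which may be technical.

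Egfr averaged 4.29 ± 0.76 TPM in EgfrKO and 13.1 ± 0.85 TPM in WT (SD, n = 3 each), with 6.93 ± 1.45 TPM in Klf5KO and 7.95 ± 1.88 TPM in Smad4KO. Smad4 averaged 30.7 ± 2.39 TPM in Smad4KO and 75.5 ± 4.45 TPM in WT. Klf5 averaged 93.8 ± 6.35 TPM in Klf5KO and 112 ± 16.8 TPM in WT, with 100.5, 87.8 and 93.2 TPM in the Klf5KO libraries and 97.1, 109 and 130.3 TPM in the WT libraries. These overlap, so the Klf5 level did not check that label. Between 12592 and 13141 genes had a TPM of at least 1 in a library.

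Guanylate-binding proteins (GBPs) and immunity-related GTPases (IRGs) are made in large amounts when interferon gamma, and to a lesser degree type I interferon, reaches a cell. The signal passes through receptor-bound JAK kinases to transcription factors that bind GAS elements in DNA and induce Irf1, which in turn binds interferon-stimulated response elements (ISREs). In mouse cells the proteins gather on vacuoles that hold intracellular parasites or bacteria and help to break them, and GBPs also promote the sensing of bacterial lipopolysaccharide by caspase-11. Among the IRGs, Iigp1 (also called Irga6) and Tgtp1 (Irgb6) are effectors that load onto vacuoles, while Irgm1, Irgm2 and Igtp (Irgm3) are regulators that hold the effectors inactive on the cell's own membranes.

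In the GRCm38.p6 annotation of RefSeq, Gbp5 (142496934 to 142522344), Gbp7 (142530336 to 142550151), Gbp3 (142560016 to 142573213) and Gbp2 (142620663 to 142638008) lay in 1 cluster on chromosome 3. Gbp4 lay on chromosome 5 at 105115767 to 105139586. On chromosome 11, Irgm1 (48865245 to 48871420) and Tgtp1 (48985329 to 48992246) stood in one group and Igtp (58199556 to 58207592) and Irgm2 (58214977 to 58222783) in another. All were annotated as protein-coding.

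Promoter sequences from RefSeq, running from 250 bases before to 50 bases after the annotated gene start, were matched for 8 of the 10 genes (not Gbp4 or Iigp1), with 2 entries for Gbp3. They were searched on both strands for ISRE letters (GAAANNGAAA) and GAS letters (TTCNNNGAA), where N is any base. All 8 genes had ISRE letters, against 3.44% of the 32851 promoters in the table, and 5 (Gbp5, Gbp7, Tgtp1, Igtp and Irgm2) also had GAS letters, against 8.30% of promoters with GAS letters and 0.454% with both. These 8 genes had 9 promoter entries, of which the second for Gbp3 had neither motif. The share of all promoters is a description, since a match is not a bound site. The 80 bases around the ISRE letters of each gene are printed because they show what the promoters share, read 5′ to 3′ along the gene's own strand, with the letters of both motifs in capitals. The GBP windows of chromosome 3 are at chr3:142496734-142496813, chr3:142530248-142530327, chr3:142559970-142560049 and chr3:142620569-142620648 on the plus strand. On chromosome 11 the Irgm1 window is at chr11:48871400-48871479 and the Tgtp1 window at chr11:48992279-48992358 on the minus strand, and those of Igtp and Irgm2 are at chr11:58199487-58199566 and chr11:58214878-58214957 on the plus strand.
Gbp5: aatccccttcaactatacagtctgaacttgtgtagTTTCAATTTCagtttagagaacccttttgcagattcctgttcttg
Gbp7: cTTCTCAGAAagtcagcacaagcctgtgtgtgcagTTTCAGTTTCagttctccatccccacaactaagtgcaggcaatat
Gbp3: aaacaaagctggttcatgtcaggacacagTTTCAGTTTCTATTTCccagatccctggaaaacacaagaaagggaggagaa
Gbp2: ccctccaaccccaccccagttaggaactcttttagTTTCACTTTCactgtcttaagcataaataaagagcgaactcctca
Irgm1: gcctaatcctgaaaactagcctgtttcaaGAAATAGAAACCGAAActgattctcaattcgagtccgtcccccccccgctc
Tgtp1: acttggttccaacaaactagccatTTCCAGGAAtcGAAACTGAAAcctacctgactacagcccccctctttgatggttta
Igtp: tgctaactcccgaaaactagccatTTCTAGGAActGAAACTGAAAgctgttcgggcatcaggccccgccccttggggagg
Irgm2: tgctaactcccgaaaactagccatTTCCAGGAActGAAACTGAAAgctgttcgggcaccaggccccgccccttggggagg

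The ISRE letters ran in the same orientation in the 4 GBP windows and in the opposite one in the 4 IRG windows. In Gbp3 and Irgm1, 2 ISRE matches overlapped. In Tgtp1, Igtp and Irgm2 the GAS letters ended 2 bases before the ISRE letters, and the windows of Igtp and Irgm2 differed at 2 of 80 bases, while those of Tgtp1 and Igtp, laid out in the same frame, differed at 36. The ISRE letters nearest the gene start began 24 bases before it in Irgm1 and 165 bases before it in Gbp5, the farthest of the 8. Among GTPases of the same families outside the 10 genes, 9 matched a promoter, of which 6 had ISRE letters and 3 had both motifs.

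**Figure D1:**
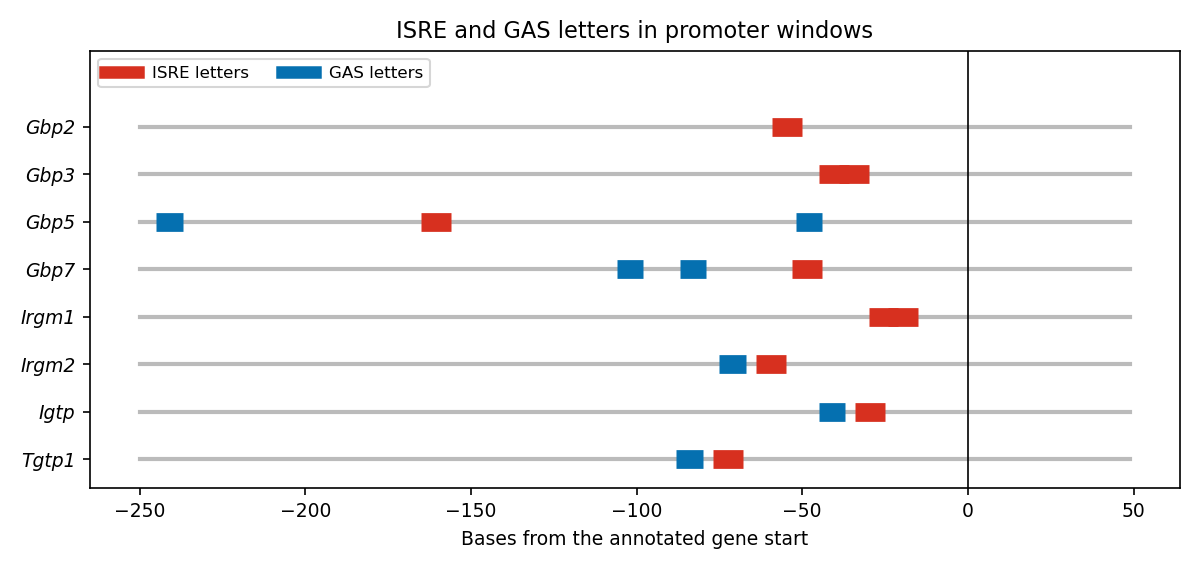
Position of ISRE letters (red) and GAS letters (blue) in the promoter window of 8 GTPase genes, as bases from the annotated gene start (0), with the searched window in grey. For Gbp3 the entry with matches is shown, its second entry having none. All 8 carry ISRE letters upstream of the start, and in Tgtp1, Igtp and Irgm2 a GAS match stands directly upstream of the ISRE match.

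Gbp2, whose product is one of the main GBPs on parasite vacuoles in mouse cells, was the most abundant of the 10 by mean over all libraries. It had 386, 368 and 354 TPM in the EgfrKO libraries, 649, 418 and 475 TPM in Klf5KO, 331, 368 and 333 TPM in Smad4KO, and 82.1, 67.9 and 47.8 TPM in WT. Every knockout library was above every WT library, and Klf5KO replicate 1 stood above all others. The mean was 5.60, 7.79 and 5.22 times the WT mean in EgfrKO, Klf5KO and Smad4KO cells.

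Gbp5, which in mouse macrophages promotes assembly of the NLRP3 inflammasome, was the least abundant of the 10 by the same mean. Its levels were 23.3, 19.0 and 21.1 TPM in EgfrKO, 46.1, 32.4 and 32.1 TPM in Klf5KO, 39.7, 36.9 and 38.5 TPM in Smad4KO, and 3.57, 2.84 and 1.90 TPM in WT libraries. The EgfrKO libraries lay between those of WT and those of the other knockouts, with no overlap on either side. Gbp5 was 7.63, 13.3 and 13.9 times its WT mean in EgfrKO, Klf5KO and Smad4KO cells.

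Gbp4 had 47.5, 48.1 and 41.1 TPM in EgfrKO, 93.5, 65.4 and 74.3 TPM in Klf5KO, 42.4, 37.9 and 38.1 TPM in Smad4KO, and 8.13, 5.10 and 2.87 TPM in WT libraries. The lowest Klf5KO library was above the highest library of each other genotype. Gbp4 reached 14.5 times its WT mean in Klf5KO cells, against 8.49 times in EgfrKO and 7.36 times in Smad4KO. Gbp7, which in mouse macrophages helps to bring the phagocyte oxidase to vacuoles, averaged 35.0 ± 1.25 TPM in EgfrKO, 52.9 ± 7.88 TPM in Klf5KO, 32.9 ± 1.55 TPM in Smad4KO and 7.74 ± 2.38 TPM in WT (SD, n = 3 each). Gbp3 averaged 70.9 ± 2.20 TPM in EgfrKO, 102 ± 18.8 TPM in Klf5KO, 64.8 ± 1.13 TPM in Smad4KO and 12 ± 4.81 TPM in WT. For both genes the Klf5KO libraries were the highest and the WT libraries the lowest, with no overlap with the other genotypes.

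Iigp1, the vacuole-loading effector, had 305, 286 and 277 TPM in EgfrKO, 595, 446 and 469 TPM in Klf5KO, 375, 359 and 344 TPM in Smad4KO, and 82.7, 58.0 and 30.2 TPM in WT libraries. The genotypes did not overlap, and the WT libraries were spread widely. Its gene, also annotated as protein-coding, lies on chromosome 18. Iigp1 was 5.07, 8.83 and 6.31 times its WT mean in EgfrKO, Klf5KO and Smad4KO cells. Tgtp1, the other effector, had 187, 178 and 166 TPM in EgfrKO, 240.5, 203 and 204 TPM in Klf5KO, 178, 169 and 171 TPM in Smad4KO, and 49, 35.5 and 18.3 TPM in WT libraries. In the GENCODE M21 transcripts, 83.2% of the 31-base words of Tgtp1 also occur in Tgtp2, so the division of reads between this pair is uncertain. For the other 9 genes the share of words found in any other gene ran from 2.20% (Irgm1) to 15.9% (Igtp, shared with Irgm2).

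Of the regulators, Igtp averaged 197 ± 8.20 TPM in EgfrKO, 249 ± 39.8 TPM in Klf5KO, 196 ± 0.79 TPM in Smad4KO and 32.8 ± 11.5 TPM in WT (SD, n = 3 each). Irgm1, loss of which in mice impairs control of mycobacteria, averaged 159 ± 8.98 TPM in EgfrKO, 186 ± 22.9 TPM in Klf5KO, 154 ± 8.96 TPM in Smad4KO and 35.5 ± 8.82 TPM in WT. Irgm2 averaged 50.5 ± 2.69 TPM in EgfrKO, 77.6 ± 9.95 TPM in Klf5KO, 46.6 ± 0.29 TPM in Smad4KO and 12 ± 3.41 TPM in WT. For each of the 3 regulators all knockout libraries were above all WT libraries.

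**Figure D2:**
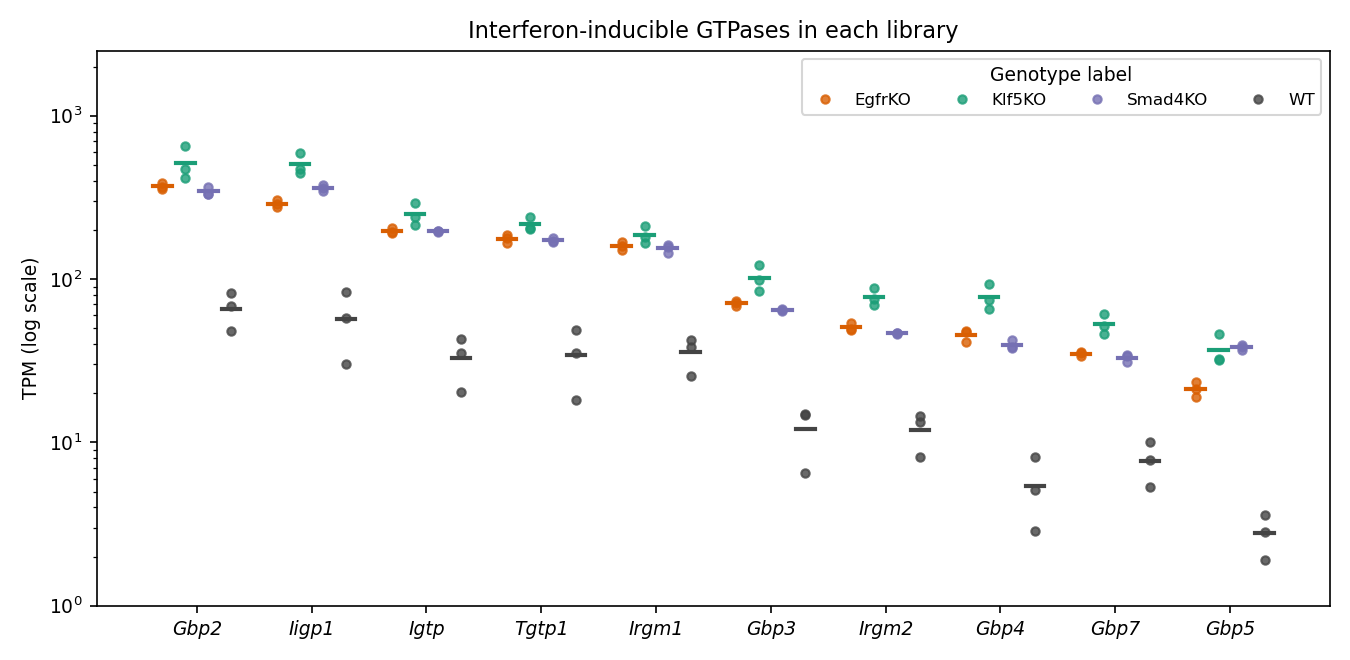
TPM (log scale) of the 10 GTPases in each of the 12 libraries, 3 per genotype, ordered by mean level, with points for libraries and bars for the mean of a genotype. The WT libraries lie below all others for every gene, the Klf5KO libraries are the highest for most, and for Gbp5 the Smad4KO libraries lie level with the Klf5KO ones.

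The order of levels within a genotype was much the same in all 4. Gbp2 ranked first and Iigp1 second in EgfrKO, Klf5KO and WT, and the pair changed places in Smad4KO, where their ranges of 331 to 368 TPM and 344 to 375 TPM overlapped. Gbp5 ranked last in EgfrKO, Klf5KO and WT, and Gbp7 ranked last in Smad4KO. Gbp2 and Iigp1 together with Igtp, Irgm1 and Tgtp1 made up the upper part of the order in each genotype. Neighbours in the order with overlapping ranges were Tgtp1 and Irgm1 in EgfrKO, and Gbp4 and Gbp5 as well as the leading pair in Smad4KO. In Klf5KO the overlapping neighbours were Gbp2 and Iigp1, Igtp and Tgtp1, Tgtp1 and Irgm1, Gbp3 and Gbp4, Gbp4 and Irgm2, and Gbp7 and Gbp5. In WT every gene's range overlapped that of the next in the order, except for Igtp and Gbp3. Overlapping ranges need not mean a change of order inside a library, since genes can move together between replicates. In every WT library Iigp1 stood above Irgm1, and Irgm2, Gbp7, Gbp4 and Gbp5 followed in that order. Tgtp1 likewise stood above Irgm1 in every EgfrKO library. In Klf5KO the same held for Igtp, Tgtp1 and Irgm1, for Gbp3 over Gbp4 and for Gbp7 over Gbp5. The other overlapping neighbours changed places between libraries.

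The 10 genes summed to 1415 ± 64.9 TPM in EgfrKO, 2015 ± 342 TPM in Klf5KO, 1449 ± 37.5 TPM in Smad4KO and 265 ± 92.4 TPM in WT (SD, n = 3 each), which was 5.33, 7.60 and 5.46 times WT in the 3 knockouts. The sum of the 5 GBPs was 5.77, 8.35 and 5.54 times WT, and that of the 5 IRGs 5.09, 7.18 and 5.42 times WT. Replicates varied least in Smad4KO, with a median coefficient of variation of 4.01% over the 10 genes, followed by 5.11% in EgfrKO, 15.9% in Klf5KO and 32.9% in WT. The genes moved together between replicates most clearly in Klf5KO and WT. Klf5KO replicate 1 was the highest of its genotype for 10 of 10 genes, WT replicate 3 the lowest for 10 of 10 and WT replicate 1 the highest for 9. EgfrKO replicate 1 was the highest for 7 and replicate 3 the lowest for 8. Smad4KO was split, with replicate 1 the highest for 6 genes and replicate 2 for 4.

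On a scale of log2(TPM + 1), where changes of low genes come out too small, the differences from WT ran from 2.03 ± 0.16 (SE; Irgm2) to 2.95 ± 0.24 (Gbp4) in EgfrKO, with a median of 2.47. In Klf5KO they ran from 2.38 ± 0.15 (Irgm1) to 3.70 ± 0.24 (Gbp4), with a median of 2.94, and in Smad4KO from 1.91 ± 0.16 (Irgm2) to 3.41 ± 0.17 (Gbp5), with a median of 2.41. Over all 13662 genes tested the medians were 0.14, 0.31 and 0.10 for EgfrKO, Klf5KO and Smad4KO. These 3 comparisons share the WT libraries, and so are not independent of one another.

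In limma's fit all 10 genes passed an adjusted p of 0.05 as higher in each knockout, which the choice of the genes had fixed. Among all genes tested, 31.3% were called higher and 12% lower in EgfrKO, 55.2% higher and 11.1% lower in Klf5KO, and 32.2% higher and 17.4% lower in Smad4KO. Median-of-ratios scaling, which divides each library by its typical ratio to the others, moved the median of all genes by -0.13, -0.31 and -0.10 in the 3 comparisons and the share of calls that were higher from 72.2% to 45.1% in EgfrKO, from 83.2% to 47.7% in Klf5KO and from 64.9% to 49.6% in Smad4KO. After it the median differences of the 10 genes were 2.32, 2.59 and 2.31.

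**Figure D3:**
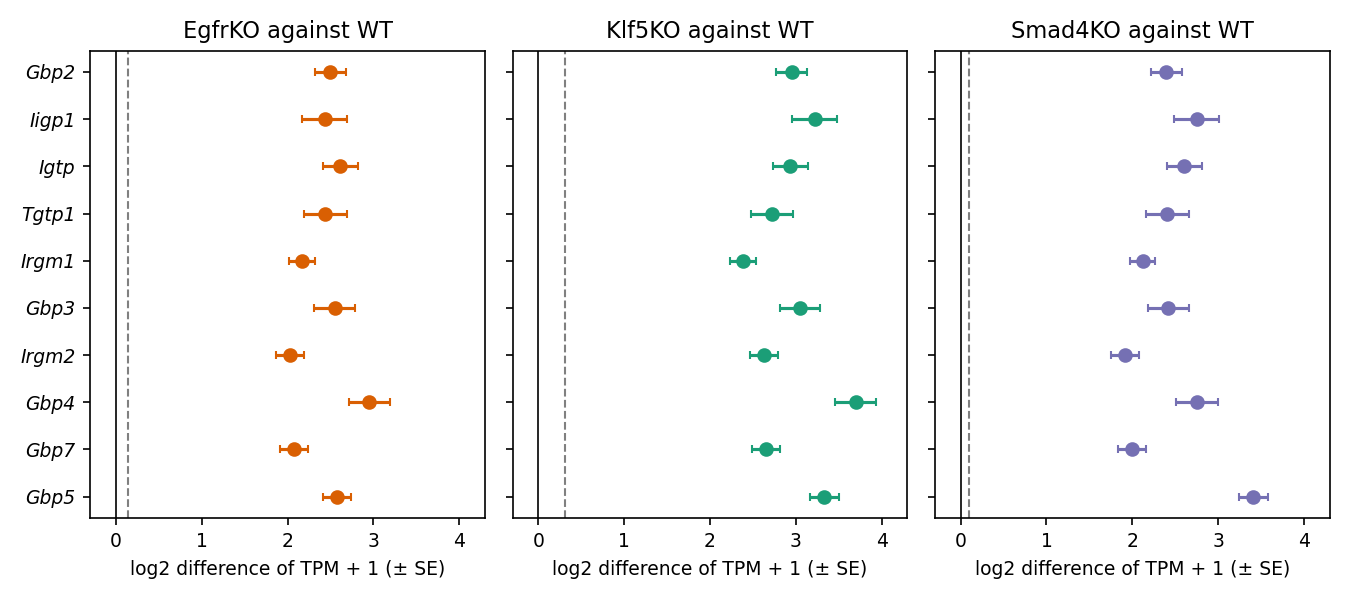
Difference of each GTPase from WT on the log2(TPM + 1) scale in EgfrKO, Klf5KO and Smad4KO cells, 3 libraries against 3, with bars for the SE from limma and a dashed line at the median of all 13662 genes (0.14, 0.31 and 0.10). All 10 genes lie well to the right of the dashed line in each panel, Gbp4 being farthest in EgfrKO and Klf5KO and Gbp5 in Smad4KO.

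The knockouts were also compared with one another, a contrast of means without WT, whose libraries enter only the shared estimate of spread. Between EgfrKO and Smad4KO, Gbp5 was lower in EgfrKO by the means 21.1 ± 2.17 and 38.4 ± 1.41 TPM (SD, n = 3 each), a log2 difference of -0.84 ± 0.17 (SE) with a limma adjusted p of 0.0026, and -0.87 with an adjusted p of 0.0015 after scaling. Among all genes 18.7% were called higher and 14.5% lower in EgfrKO than in Smad4KO. None of the other 9 GTPases passed the threshold in this contrast. Their log2 differences ran from -0.31 (Iigp1, 95% interval -0.89 to 0.26) to 0.20 (Gbp4, 95% interval -0.32 to 0.73).

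The same departure of Gbp5 can be read inside each library, where scaling plays no part. Gbp5 stood at 5.72 ± 0.49% of the Gbp2 level in EgfrKO, 7.21 ± 0.50% in Klf5KO, 11.2 ± 1.04% in Smad4KO and 4.17 ± 0.19% in WT (SD, n = 3 each). Relative to Gbp7, its neighbour on the chromosome, Gbp5 stood at 60.5 ± 6.78% in EgfrKO, 69.4 ± 6.25% in Klf5KO, 117 ± 7.78% in Smad4KO and 35.8 ± 0.75% in WT. On both ratios the 3 Smad4KO libraries lay above all 9 others.

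In EgfrKO, 5 of the 10 GTPases were lower than in Klf5KO and none was higher, beside 40.5% of all genes called lower and 14.7% called higher. Those called were Gbp4 (log2 difference -0.75 ± 0.24), Gbp5 (-0.76 ± 0.17), Gbp7 (-0.57 ± 0.16), Iigp1 (-0.79 ± 0.26) and Irgm2 (-0.60 ± 0.16), with limma adjusted p from 0.0023 for Gbp5 to 0.0235 for Iigp1. The median over the 10 genes was -0.54, and over all genes -0.16. Of the rest, Gbp2 had -0.45 with an adjusted p of 0.0508, and Irgm1, with overlapping groups, -0.22 (95% interval -0.55 to 0.11). After median-of-ratios scaling, which moved the median of all genes by 0.18 and the share of calls that were higher from 26.6% to 50.8%, the median of the 10 was -0.34 and 2 calls, Gbp5 and Irgm2, remained. Without Klf5KO replicate 1 there were also 2 calls, the calls of Gbp4, Gbp7 and Iigp1 having adjusted p of 0.0807, 0.0503 and 0.0878. Without EgfrKO replicate 3 there were 3, with Gbp4 at 0.0657 and Iigp1 at 0.0636, and without EgfrKO replicate 2 Iigp1 stood at 0.0554. Without Klf5KO replicate 2 there were 6, Gbp2 then having an adjusted p of 0.0219. Leaving out WT replicate 3 left each difference as it was, since WT enters only the estimate of spread, but gave 9 calls, with Gbp2, Gbp3, Igtp and Tgtp1 added at limma adjusted p from 0.0019 (Gbp3) to 0.0425 (Tgtp1). Without WT replicate 1 there were 6.

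In Klf5KO, 5 GTPases were higher than in Smad4KO and none was lower, beside 45.5% of all genes called higher and 18.3% called lower. They were Gbp2 (log2 difference 0.55 ± 0.18), Gbp3 (0.63 ± 0.24), Gbp4 (0.95 ± 0.24), Gbp7 (0.66 ± 0.16) and Irgm2 (0.72 ± 0.16), with limma adjusted p from 0.0022 for Irgm2 to 0.0349 for Gbp3. The median was 0.51 over the 10 genes and 0.21 over all genes. Gbp5 had a difference of -0.08 (95% interval -0.44 to 0.29), with overlapping groups. Scaling moved the median of all genes by -0.21 and the share of calls that were higher from 71.2% to 49.1%, and left 3 calls, Gbp4, Gbp7 and Irgm2, with a median of 0.27. The same number was called without Klf5KO replicate 1, where Gbp2 and Gbp3 had adjusted p of 0.0800 and 0.128. The call of Gbp3 was also lost without Klf5KO replicate 3 (0.0636) or without replicate 1, 2 or 3 of Smad4KO (0.0670, 0.0672 and 0.0785). Without WT replicate 3 there were 9 calls, with Iigp1, Igtp, Irgm1 and Tgtp1 added at limma adjusted p from 0.0076 (Iigp1) to 0.0223 (Tgtp1), and without WT replicate 1 there were 6, with Iigp1 added.

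**Figure D4:**
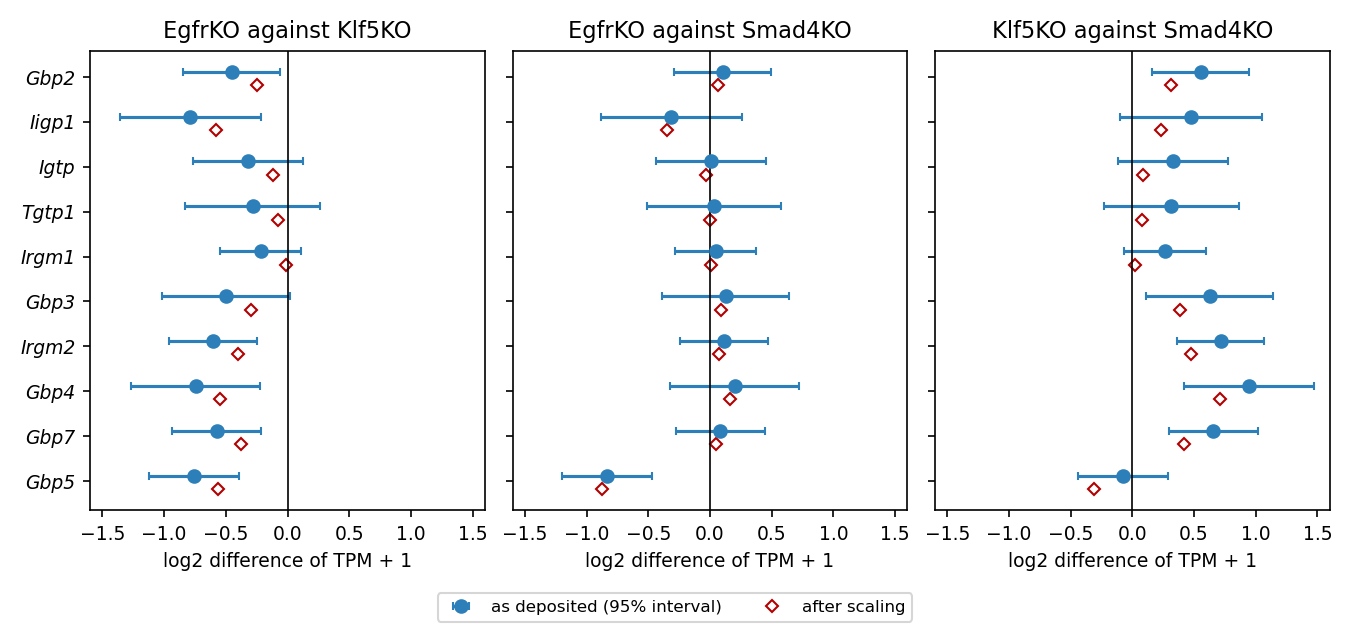
Differences of the 10 GTPases between knockouts on the log2(TPM + 1) scale, with 95% intervals from limma (filled points, values as deposited) and after median-of-ratios scaling (open diamonds). Gbp5 is apart from the other genes in both panels with Smad4KO, and after scaling the differences between Klf5KO and the other knockouts are nearer 0, except for Gbp5 against Smad4KO (-0.08 before and -0.31 after).

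Other members of the GBP, IRG, GVIN and MX families were taken from a list of 28 symbols, of which 24 were in the table and 21 were tested. Of these, 19 were higher and 0 lower in EgfrKO, 20 and 0 in Klf5KO, and 18 and 0 in Smad4KO than in WT, with median log2 differences of 2.0, 2.69 and 1.67. Scaling left 19, 18 and 17 of them higher. For this list and those that follow, the shares of all tested genes called higher than WT before scaling were 31.3%, 55.2% and 32.2%. Those called lower were 12%, 11.1% and 17.4%, in EgfrKO, Klf5KO and Smad4KO. After scaling, 2485, 3397 and 3382 of the 13662 genes were called higher and 3023, 3731 and 3441 lower, beside which the scaled counts stand. Of the GBP genes, Gbp6 averaged 62.1 ± 4.63, 103 ± 17.3 and 67.9 ± 2.59 TPM in EgfrKO, Klf5KO and Smad4KO, against 10.9 ± 3.96 TPM in WT. Gbp8, Gbp9, Gbp10 and Gbp11 were also higher in each knockout, Gbp11, listed by RefSeq as a transcribed pseudogene, being at 4.73 ± 1.26, 4.76 ± 0.92 and 4.26 ± 0.44 TPM against 0.149 ± 0.125 TPM in WT.

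Of the further IRG genes, Tgtp2 averaged 146 ± 4.18, 215 ± 14.5 and 124 ± 4.33 TPM in EgfrKO, Klf5KO and Smad4KO, against 25.5 ± 7.09 TPM in WT. The log2 differences from WT of Gm12250, Gm4951, Gm4841, Gm12185 and F830016B08Rik lay between 1.67 (Gm12185 in Smad4KO) and 3.59 (Gm12250 in Klf5KO), all past the threshold. Those of 9930111J21Rik1 and 9930111J21Rik2 were smaller, from 0.44 to 1.77, and the call of 9930111J21Rik2 in Smad4KO (limma adjusted p = 0.0317) was lost on scaling. Gm5431 was called in Klf5KO alone before scaling, at 0.70 ± 0.20, and had 0.45 in EgfrKO and 0.41 in Smad4KO. Irgq, an IRG-like gene that is not known as interferon-inducible, averaged 13.5 ± 1.02, 22.7 ± 2.72 and 13.4 ± 0.94 TPM, against 13.4 ± 0.19 TPM in WT, and was called in Klf5KO alone (0.71 ± 0.09).

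The very large GTPase Gvin1 had 49.3, 49.5 and 38.9 TPM in EgfrKO, 166, 114 and 99.7 TPM in Klf5KO, 62.5, 62.0 and 52.2 TPM in Smad4KO, and 9.82, 9.28 and 7.52 TPM in WT libraries. The Klf5KO libraries were above all others. EgfrKO was below Klf5KO by a log2 difference of -1.42 and Klf5KO above Smad4KO by 1.06, and both calls held after scaling. Its relatives Gm4070, Gm1966 and Gm8979 were higher than WT in each knockout, by 1.04 to 2.34 on the log2 scale. Mx1, an antiviral dynamin-like GTPase that RefSeq lists as a transcribed pseudogene, went the other way between knockouts. It had 4.57 ± 0.79, 2.68 ± 0.94 and 6.69 ± 0.85 TPM in EgfrKO, Klf5KO and Smad4KO, against 1.45 ± 0.38 TPM in WT, and was 1.09 lower in Klf5KO than in Smad4KO on the log2 scale. Mx2 was called in EgfrKO alone, at 2.71 ± 0.38 TPM against 1.19 ± 0.56 TPM in WT. Over the 21 genes, EgfrKO had 1 higher and 17 lower than Klf5KO (2 and 12 after scaling). Among all genes 14.7% were higher and 40.5% lower there (3603 and 3492 of 13662 after scaling). Klf5KO had 16 of the 21 higher and 1 lower than Smad4KO (12 and 1 after scaling). Among all genes these were 45.5% and 18.3% (4056 and 4211 of 13662 after scaling). EgfrKO and Smad4KO differed in Gbp9 only, higher in EgfrKO by 0.47, beside 18.7% of all genes higher and 14.5% lower.

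Of the ligands that induce these genes, none of 11 interferon genes in the table reached the filter. Ifng, encoding interferon gamma, had at most 0.868 TPM (Klf5KO replicate 2) and was listed at 0 in EgfrKO replicate 3 and WT replicate 3. It averaged 0.094 ± 0.084, 0.496 ± 0.328 and 0.225 ± 0.270 TPM in EgfrKO, Klf5KO and Smad4KO, against 0.108 ± 0.0999 TPM in WT. The Klf5KO libraries overlapped those of Smad4KO but not those of EgfrKO or WT, at levels too low to be tested. Ifnb1 had at most 0.479 TPM, in WT replicate 1. Ifna2, Ifna4, Ifna5, Ifnl2 and Ifnl3 were listed at 0 in all 12 libraries.

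All 6 receptor genes were tested, and 3 were higher in EgfrKO, 3 higher and 1 lower in Klf5KO, and 6 higher in Smad4KO than in WT. After scaling these counts were 3 higher, 2 higher with 3 lower, and 6 higher. Ifngr1, the ligand-binding chain for interferon gamma, averaged 97.7 ± 2.07, 80.8 ± 7.31 and 132 ± 4.99 TPM in EgfrKO, Klf5KO and Smad4KO, against 73.5 ± 3.07 TPM in WT. Its partner Ifngr2 averaged 84.7 ± 2.48, 111 ± 8.73 and 111 ± 4.84 TPM, against 67.8 ± 2.46 TPM in WT, and was called higher in all 3. The type I chains Ifnar1 and Ifnar2 were called higher in Smad4KO by 0.54 ± 0.08 and 0.50 ± 0.09, and in Klf5KO Ifnar1 by 0.70 ± 0.08. Ifnlr1, the lambda receptor chain, was lower in Klf5KO, at 1.24 ± 0.19 TPM against 2.55 ± 0.31 TPM in WT, and its partner Il10rb was higher in Smad4KO, at 53.1 ± 2.15 TPM against 29.9 ± 1.56 TPM in WT. The largest receptor difference was 0.83 (Ifngr1 in Smad4KO).

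Among 13 kinases, STATs and interferon regulatory factors, 9 were higher and 1 lower in EgfrKO, 11 and 0 in Klf5KO, and 8 and 2 in Smad4KO than in WT, and 8 and 3, 8 and 1, and 8 and 2 after scaling. Irf1, the induced factor that binds ISREs, averaged 164 ± 11.7, 162 ± 8.64 and 151 ± 9.21 TPM in EgfrKO, Klf5KO and Smad4KO, against 71.6 ± 6.56 TPM in WT. Batf2, a leucine zipper factor induced by interferon gamma, averaged 30.9 ± 2.32, 29.2 ± 4.57 and 44.2 ± 4.53 TPM, against 6.07 ± 3.39 TPM in WT. Stat2 averaged 25.2 ± 2.79, 23.3 ± 1.90 and 19.2 ± 0.73 TPM, against 9.32 ± 1.94 TPM in WT.

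Of 10 negative regulators, 3 were higher and 2 lower in EgfrKO, 7 and 1 in Klf5KO, and 5 and 1 in Smad4KO, and after scaling 3 and 4, 3 and 3, and 3 and 3. Socs1, the interferon-induced inhibitor of JAK kinases, averaged 40.4 ± 1.07, 30.0 ± 7.84 and 33.8 ± 2.55 TPM in EgfrKO, Klf5KO and Smad4KO, against 10.8 ± 0.37 TPM in WT. Usp18, which removes Isg15 and dampens the type I receptor, averaged 17.6 ± 1.77, 17.5 ± 1.88 and 13.6 ± 1.76 TPM, against 6.25 ± 2.16 TPM in WT. Cish was higher in EgfrKO by 0.58 ± 0.15 and in Klf5KO by 0.66 ± 0.15, with 0.25 in Smad4KO, the Klf5KO call being lost on scaling. Socs3 was lower in all 3, with 111 ± 3.72, 78.8 ± 1.93 and 96.8 ± 2.22 TPM, against 121 ± 3.18 TPM in WT.

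Proteins that act with the GTPases at vacuoles came mainly from the autophagy conjugation system that places GBPs and IRGs. Of 14 tested, 2 were higher and 5 lower in EgfrKO, 6 and 2 in Klf5KO, and 1 and 4 in Smad4KO than in WT, and 1 and 7, 2 and 10, and 1 and 7 after scaling. Trim21, a ubiquitin ligase, was higher in all 3, at 8.63 ± 1.67, 11.1 ± 0.87 and 7.47 ± 0.33 TPM, against 3.43 ± 1.01 TPM in WT. Sqstm1, the ubiquitin-binding autophagy receptor p62, was lower in all 3, at 302 ± 8.52, 379 ± 12.9 and 321 ± 10.4 TPM, against 521 ± 65.2 TPM in WT. Map1lc3a was lower in EgfrKO (-0.81 ± 0.11) and Smad4KO (-0.46 ± 0.11), and Gabarapl1 in EgfrKO (-0.59 ± 0.06) and Klf5KO (-0.27 ± 0.06).

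Of 9 genes of lipopolysaccharide sensing and the inflammasome, 5 were higher in EgfrKO, 5 higher in Klf5KO, and 4 higher and 2 lower in Smad4KO than in WT. After scaling these were 5 higher with 1 lower, 4 higher, and 3 higher with 4 lower. In Klf5KO the part of this list called higher before scaling was near the 55.2% of all genes. For the receptors and the vacuole partners it was below that share. Casp1, the inflammasome protease, averaged 45.4 ± 5.0, 43.7 ± 3.60 and 42.2 ± 2.94 TPM in EgfrKO, Klf5KO and Smad4KO, against 8.90 ± 1.17 TPM in WT. Casp4, the gene of caspase-11, averaged 19.6 ± 1.92, 19.1 ± 0.90 and 23.8 ± 0.71 TPM, against 7.0 ± 0.91 TPM in WT. Gsdmd, which forms the pores of pyroptosis, averaged 128 ± 9.35, 95.6 ± 4.98 and 145 ± 6.65 TPM, against 74.5 ± 7.80 TPM in WT, and its call in Klf5KO was lost on scaling. Aim2, a DNA sensor, was highest in Klf5KO, at 23.6 ± 1.5 TPM, against 7.03 ± 0.42 TPM in WT.

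Among other interferon targets, all 15 genes of a list induced mainly by interferon gamma were higher than WT in each knockout, before and after scaling, with median log2 differences of 2.39, 2.81 and 2.45. Of 20 genes listed as induced mainly by type I interferon, 18 were higher and none lower in each, with medians of 1.30, 0.92 and 1.0, and after scaling 18, 12 and 18 were higher and 0, 1 and 0 lower. The lists were drawn up with these differences known and do not stand as evidence of their direction. From the first list, the T cell chemokine gene Cxcl9 averaged 105 ± 5.70, 166 ± 36.1 and 126 ± 1.04 TPM in EgfrKO, Klf5KO and Smad4KO, against 8.90 ± 3.29 TPM in WT. The ubiquitin-like Ubd averaged 71.3 ± 4.41, 95.1 ± 15.3 and 72.7 ± 9.93 TPM, against 5.13 ± 2.06 TPM in WT. Psmb8, an immunoproteasome subunit, averaged 355 ± 10.8, 377 ± 56.6 and 259 ± 19.5 TPM, against 47.7 ± 22.0 TPM in WT, and the serpin Serpina3g 10.5 ± 1.14, 26.7 ± 3.78 and 18.2 ± 0.64 TPM, against 0.905 ± 0.382 TPM. From the second list, the nucleic acid sensor Zbp1 averaged 82.2 ± 6.72, 114 ± 11.2 and 66.7 ± 2.91 TPM, against 21.7 ± 7.12 TPM in WT. Oas1a, Oasl2 and Xaf1 were 1.08 to 1.88 higher than WT on the log2 scale.

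The genes outside the 10 whose levels followed them most closely were found by the root mean square difference, over the 12 libraries, between each gene's centred log2(TPM + 1) values and the mean profile of the 10, among 9868 candidates with a mean TPM of at least 5. Tap1, a subunit of the peptide transporter for MHC class I, was the closest at 0.075. Its means were 130.4 ± 9.42, 183 ± 25.6 and 136 ± 5.85 TPM in EgfrKO, Klf5KO and Smad4KO, against 25.4 ± 10.2 TPM in WT. Gbp6 (0.093), Tgtp2 (0.149), Gbp8 (0.167), the IRG relative Ifi47 (0.187), H2-DMa (0.199) and Apol10b (0.200) followed. The 10 genes themselves lay between 0.089 (Igtp) and 0.369 (Gbp5) from their own mean profile, and the median candidate at 1.11, so Gbp5 was the least typical of the 10 by this measure, which is given as a description.

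The sorted libraries carried RNA of other cell types. Krt8 and Krt18, epithelial keratins, led the epithelial markers, whose sum was 7408 to 7917 TPM in EgfrKO, 4682 to 5211 in Klf5KO, 7903 to 8875 in Smad4KO and 5531 to 5997 in WT, while Epcam was at 1.20 to 1.36, 0.314 to 0.679, 36.8 to 41.0 and 11.4 to 14.6 TPM. The macrophage list, led by Lyz2 and C1qa, summed to 1241 to 1340 TPM in EgfrKO, 1050.5 to 1677 in Klf5KO, 183 to 808 in Smad4KO and 736 to 1466 in WT, and of its 10 genes 0, 1 and 0 were called higher and 0, 0 and 2 lower in EgfrKO, Klf5KO and Smad4KO. Fewer cells of a type and less RNA per cell cannot be told apart in such libraries. Smad4KO replicate 2 had a GTPase sum of 1474 TPM at a macrophage sum of 183 TPM, whereas WT replicate 2 had a GTPase sum of 279 TPM at a macrophage sum of 1466 TPM. These libraries were chosen as those with the lowest macrophage sum of all and the highest in WT, and the part of macrophage RNA in the GTPase levels was not tested.

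**Figure D5:**
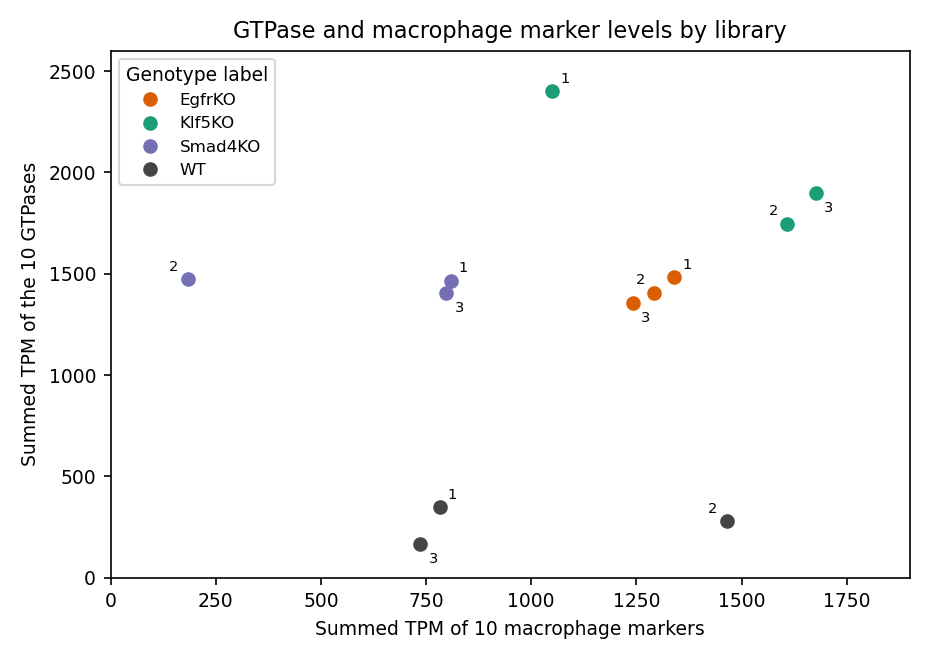
Summed TPM of the 10 GTPases (vertical) against the summed TPM of 10 macrophage markers (horizontal) in each of the 12 libraries, coloured by genotype and numbered by replicate. WT libraries lie at 167 to 350.1 TPM of GTPases over a macrophage range of 736 to 1466 TPM, and Smad4KO libraries at 1406 to 1474 TPM over 183 to 808 TPM.

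Markers of T and NK cells, the usual makers of interferon gamma, had a higher sum in each knockout than in WT, though not every gene was higher. Their 9 genes, led by Cd3d and Nkg7, summed to 10.2 to 13.4 TPM in EgfrKO, 12.8 to 19.1 in Klf5KO, 7.87 to 12.1 in Smad4KO and 2.52 to 6.23 in WT, so that no knockout library overlapped WT. Of the 7 tested, 5, 5 and 3 were called higher and none lower. Cd3d averaged 2.73 ± 0.31, 2.78 ± 1.39 and 2.68 ± 0.38 TPM in EgfrKO, Klf5KO and Smad4KO, against 2.44 ± 1.18 TPM in WT. Nkg7 averaged 2.41 ± 1.19, 4.29 ± 1.53 and 2.10 ± 0.10 TPM, against 0.163 ± 0.191 TPM in WT, and was called higher in each knockout. Neither Cd3d nor Cd4 was called in any knockout. None of the 9 was listed at 0 throughout, and Ncr1 and Klrb1c stayed under 1 TPM in all libraries. Their part in the GTPase levels was not tested. General leukocyte genes, led by Laptm5 and Cd53, summed to 113 to 128, 142 to 198 and 41.9 to 70.2 TPM in EgfrKO, Klf5KO and Smad4KO, against 89.7 to 119 TPM in WT. This pair went opposite ways in EgfrKO, with Laptm5 at 49.6 ± 2.23 TPM against 33.6 ± 11.6 TPM in WT. Cd53 was at 30.3 ± 2.32 TPM against 41.5 ± 3.64 TPM. Dendritic cell genes (Itgax and Zbtb46 the highest) summed to 7.27 to 7.88, 10.8 to 15.0 and 3.86 to 4.79 TPM, against 3.62 to 4.56 TPM. In Smad4KO, Itgax had a lower mean than WT (1.18 ± 0.09 against 1.65 ± 0.53 TPM) and Zbtb46 a higher one (2.66 ± 0.39 against 1.81 ± 0.08 TPM). The neutrophil list, led by S100a8 and S100a9, summed to 5.87 to 8.96, 5.56 to 11.7 and 8.57 to 11.2 TPM, against 9.86 to 20.0 TPM in WT. Csf3r, also on that list, had higher means in EgfrKO, Klf5KO and Smad4KO than in WT. They were 2.55 ± 0.12, 2.54 ± 0.28 and 2.04 ± 0.63 TPM, against 1.61 ± 0.74 TPM. B cell genes, led by Cd79a and Ms4a1, stayed under 1 TPM in every library.

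Markers of stroma were highest in Klf5KO, the genotype with the highest GTPase sum. Fibroblast genes, led by Col1a1 and Col1a2, summed to 113 to 122 TPM in EgfrKO, 284 to 599 in Klf5KO, 46.2 to 72.7 in Smad4KO and 50.4 to 130.5 in WT, and endothelial genes, led by Cdh5 and Pecam1, to 6.25 to 8.46, 11.6 to 14.6, 2.12 to 3.20 and 2.34 to 3.09 TPM. Klf5KO replicate 1, with a GTPase sum of 2400.0 TPM, also had the highest fibroblast sum of the 12 libraries. The part of these cells in the differences between Klf5KO and the other knockouts was not tested.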

How the data were processed

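RNA of 12 samples was sequenced. The authors' processing ended in a single deposited TPM table with a row for each gene symbol. Salmon and mm10 are named per the submitters' processing notes, with versions and annotation not given in the sources consulted. Every column of TPM sums to the same total, so values are shares, depth is unknown and no counting interval is given.

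Columns were matched to samples by name. A gene was kept where 3 or more libraries had a TPM of 1 or more, which left 13662, and their log2(TPM + 1) values were fitted with limma 3.58.1 (R 4.3.3) in 1 model of 4 genotype means, with eBayes and a trend, giving 6 two-sided contrasts. The Benjamini-Hochberg adjustment ran over all genes of a contrast, with a threshold of 0.05. The fit was tested on simulated data. Gene positions and promoters came from RefSeq (GRCm38.p6), and shared 31-base words from GENCODE M21 transcripts.

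The members and the gene lists were chosen with earlier results of these data known. Genes named are the members, the targeted genes, family GTPases, interferon ligands and receptors with a mean TPM of at least 1, Ifng, and the 4 genes of each other list with the largest absolute mean difference from WT (always with Irf1 and Socs1). To these were added the 8 genes closest in profile and the 2 most abundant markers of each cell type. A gene that this rule names is not reported here. Genes outside this rule, such as Epcam, Ncr1, Klrb1c, Cd4, Csf3r and the ligands other than Ifng, were chosen after their values were seen. Alternatives were other pseudocounts, other filters, median-of-ratios scaling, quantile normalization, no trend, a replicate block, a fit of the 2 groups compared, and leaving out each library.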

Additional observations from a re-analysis of the deposited data

How the results depend on the processing

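Against WT, the count of the 10 GTPases called stayed at 10 in each knockout under all 21 alternatives, including the replicate block. All 210 single values per contrast kept their direction and call. The genes were chosen with these differences known, so nothing is read from this. Among all 13662 genes, 4277, 7536 and 4400 were called higher in EgfrKO, Klf5KO and Smad4KO as reported. After median-of-ratios scaling these were 2485, 3397 and 3382. The counts called in either direction stayed within 1.5 times for family GTPases (15 to 20). The same held for ligands, receptors, kinases, STATs, regulatory factors and negative regulators as 1 set (14 to 24). Counts of single lists in 1 direction moved more on scaling, as for negative regulators higher in Klf5KO (7 as reported and 3 scaled). Between knockouts, EgfrKO against Klf5KO gave 5 calls as reported, 2 after median-of-ratios scaling, 3 after quantile normalization, 9 in a fit of the 2 groups compared and 2 to 9 with 1 library left out. EgfrKO against Smad4KO gave 1 call as reported and 2 in the fit of 2 groups. Klf5KO against Smad4KO gave 5 as reported, 3 after median-of-ratios scaling, 9 in the fit of 2 groups and 3 to 9 with 1 library left out. Both counts of 9 with a library left out came without WT replicate 3, where the differences are the same and the estimate of spread is not. The cause was otherwise not tested. Differences near 0 changed sign. In EgfrKO against Smad4KO, Igtp had -0.0281 after median-of-ratios scaling, -0.00277 after quantile normalization and -0.0238 to 0.0311 with 1 library left out, Tgtp1 had -0.0036 after median-of-ratios scaling and -0.0063 to 0.0777 with 1 library left out, and Irgm1 had -0.00052 to 0.0855 with 1 library left out. In Klf5KO against Smad4KO, Gbp5 had -0.24 to 0.0103 with 1 library left out. With the replicate number as a block, the contrasts between knockouts gave 6, 1 and 5 calls. Same-numbered samples had correlations of their deviations from -0.15 to 0.12, and in 15 of 36 checks a sample was closest to its own number. These values gave no clear sign of pairing but cannot exclude it, since each sample enters several of the checks. Depth is unknown, so precision at low TPM, as for the interferon genes, cannot be judged.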
